A study of Arabidopsis thaliana with 15 samples.

Results

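The UGT glycosyltransferases and the tau class glutathione transferases (GSTU) are 2 large families of conjugating enzymes in Arabidopsis thaliana. A gene was taken as a member if a probe set annotated to no other gene carried a symbol that begins with UGT or GSTU followed by a digit, and the probe set with the highest mean log2(signal + 16) stood for the gene. This gave 58 genes, 47 UGT and 11 GSTU, of the 13350 genes that single-gene probe sets name. Each of the 58 had 1 such probe set. The reference gene table lists 85 genes with these symbols, and 3 further family probe sets match several genes and were left out.

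The series used Affymetrix ATH1 arrays, each with RNA from 1 sample of sorted root protoplasts, in a study of how vascular cells of the root respond to brassinolide (BL), the most active brassinosteroid hormone. Roots were 6 days old, BL was given at 10 nM in the plates, and fluorescent cells were then sorted. The 7 groups were ATHB15 BL 2 h (cells carrying pAtHB15:YFP, BL for 2 h, 2 arrays), ATHB15 control (the same line untreated, 3 arrays), and, for cells carrying pWOL:GFP, WOL control (untreated, 2 arrays) and WOL BL for 0.5, 1, 2 and 4 h (2 arrays each). The labels assign pWOL:GFP cells to the stele, the central cylinder of the root, and pAtHB15:YFP cells to provascular cells, the dividing precursors of vascular tissue. A group is therefore defined by the activity of 1 promoter after the walls had been digested, no group is a whole tissue, and the labels give no mock-treated sample for the BL times. The labels do not say whether arrays of a group came from separate cultures, so a p-value may measure only technical spread.

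A UGT enzyme joins a sugar from a nucleotide donor to a small acceptor, such as a hormone, a flavonoid, a lignin precursor or a foreign compound, which changes its activity, solubility or storage. A GSTU enzyme joins the tripeptide glutathione to reactive or foreign molecules, or binds them, and such conjugates are moved into the vacuole. Both families are known for induction by herbicides, oxidative stress and defence signals, and 2 UGT73C enzymes, UGT73C5 and UGT73C6, glucosylate brassinosteroids themselves. Neither of those 2 genes has a probe set named here, so the brassinosteroid-conjugating step was not analysed.

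The arrays called 49.5% to 59.6% of all probe sets present. Of the 58 members, between 11 and 32 were called present on an array: 18 and 23 in ATHB15 BL 2 h, 25, 15 and 11 in ATHB15 control, 32 and 19 in WOL control, and 25 to 31 in the WOL BL groups. WOL control B stood apart within its line, with the fewest members present of the 10 WOL arrays and a GAPDH 3' to 5' ratio, a sign of RNA quality, of 4.66, above that of the other 14 arrays. It lay below WOL control A for 37 of 58 members (63.8%, against 43.7% of all probe sets), and for GSTU genes by a median of 1.14 on the log2 scale. That GSTU median is the value of GSTU20, a gene called absent on every array. WOL BL 4 h B lay below WOL BL 4 h A for 44 of 58 members (75.9%, against 49.4% of all probe sets).

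The sorted identity could be checked with few of the listed markers. LHW and PHV, regulators of vascular precursor cells, were called present on all 15 arrays, and they are 2 of the 25 stele genes listed that have a named probe set. JKD, a regulator of the ground tissue and the 1 measured gene of 12 listed for cortex and endodermis, was called absent on all 15. EXPA7 and EXPA18, expansins of growing root hairs and 2 of 11 listed epidermal genes, were called present on 11 and 9 arrays. EXPA7 ran from 2.2 to 87.3 over the ATHB15 arrays and from 88.5 to 597 over the WOL arrays. EXPA18 ran from 8 to 94.5 over the ATHB15 arrays and from 77.8 to 681 over the WOL arrays. WOL and ATHB15 themselves have no probe set named here, and nor has any of the 6 root cap genes listed.

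**Figure D1:**
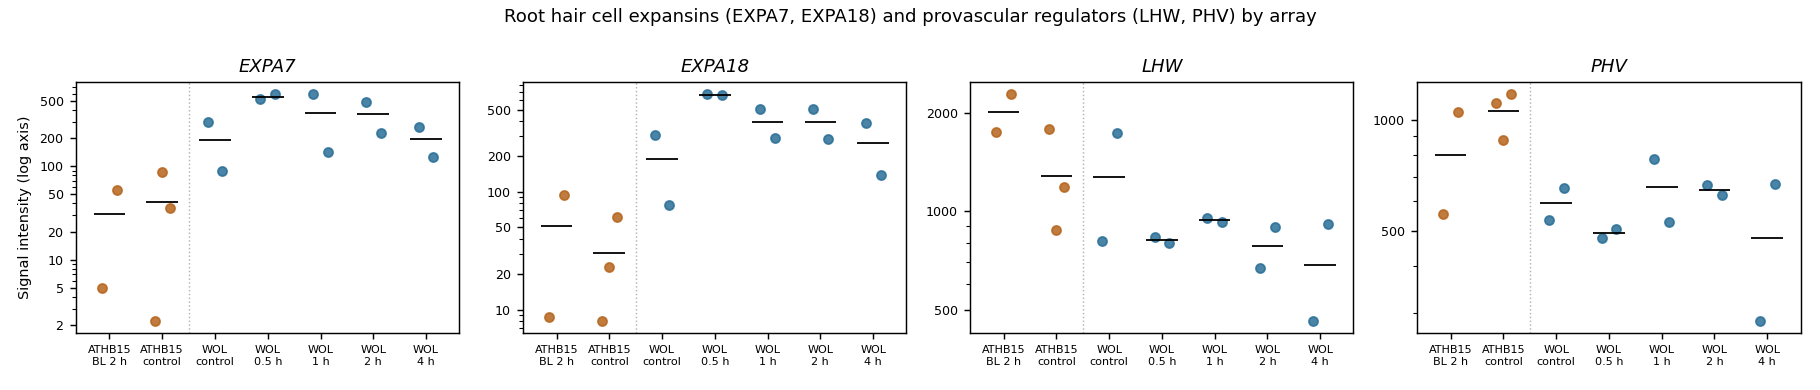
Signal intensity (log axis) of 4 marker genes on each of the 15 arrays. Points are arrays, the short bar is the group mean, ATHB15 groups are brown and WOL groups blue. EXPA7 and EXPA18 reach higher signals in WOL cells, with the summed signal of both at 166 to 599 in WOL control and 10.2 to 110.5 in ATHB15 control, whereas LHW and PHV are called present throughout.

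Of the 58 members, 9 were called present on all 15 arrays, 26 on at least 8, 12 on 1 to 7 and 20 on none. Among the 11 GSTU genes these counts were 2, 6, 2 and 3. UGT71, UGT73, UGT74 and UGT76, which hold most of the hormone and defence-related enzymes, each had 3 or 4 members called present on at least 8 arrays, whereas UGT84, which makes glucose esters of hydroxycinnamic acids and of auxin, had none of 5. The 5 GSTU probe sets of highest mean signal were those of GSTU26, GSTU22, GSTU27, GSTU25 and GSTU28, and the 5 of the UGT family were those of UGT71C4, UGT74B1, UGT87A2, UGT78D2 and UGT74D1. Signals of different probe sets are not a comparison of transcript amounts. The 20 genes called absent everywhere were GSTU15, GSTU20, GSTU21, UGT71B6, UGT71B8, UGT72B3, UGT72E1, UGT73C1, UGT73C2, UGT76E1, UGT76E11, UGT76E12, UGT78D1, UGT78D3, UGT84A1, UGT84A3, UGT84B1, UGT84B2, UGT85A5 and UGT85A7. No fold is given for these.

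Several members lie next to each other in the gene order. GSTU20, GSTU21, GSTU22 and GSTU23 form 1 cluster, in which GSTU22 reached 312 to 5196 in WOL cells while GSTU20 and GSTU21 were absent on every array and GSTU23 was present on 2 of 15. GSTU25 and GSTU26 are neighbours that were both detected in both lines. Of the UGT85A cluster (UGT85A2, UGT85A3, UGT85A5 and UGT85A7), UGT85A2 was present on all 15 arrays, UGT85A3 on 1 and the other two on none. Near-identical neighbours can share probes, so the levels of such genes are uncertain.

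GSTU22 had signals of 419 and 96.8 in ATHB15 BL 2 h and of 80.5, 126 and 38.5 in ATHB15 control. In WOL cells it had 937 and 312 untreated, and 1871 and 1723, then 2519 and 3158, then 4298 and 1781, then 5196 and 1395 over the 4 BL times. All 8 BL arrays of the WOL line lay above both WOL control arrays, and the 2 lines overlapped only between ATHB15 BL 2 h 1 and WOL control B. GSTU25, an enzyme that conjugates the explosive trinitrotoluene, had 195 and 75.9 in ATHB15 BL 2 h and 143, 695 and 75.6 in ATHB15 control, where array 2 stood far above the others. In WOL cells GSTU25 had 1194 and 276 untreated and, from 0.5 to 4 h of BL, 1209 and 946, then 1302 and 1959.9, then 2167 and 1733, then 3719.5 and 1209.7. WOL control A lay between the 0.5 h arrays, and WOL control B was below every WOL BL array.

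GSTU27 had 271 and 203 in ATHB15 BL 2 h and 252, 111 and 156 in ATHB15 control. Its WOL signals were 794 and 523 untreated, and 1981 and 2307, then 1978 and 1152, then 2010.1 and 903, then 1559.9 and 772 over the 4 BL times. Every ATHB15 array was below every WOL array, and within WOL both 0.5 h arrays were above both controls. GSTU26 was called present on all 15 arrays, with 734 and 448 in ATHB15 BL 2 h and 651, 505 and 483 in ATHB15 control. In WOL it had 1569 and 573 untreated and 2137 and 2427, then 1316 and 1435, then 1382 and 919, then 2459.6 and 901 over the BL times. Its log2 differences between the lines, -0.95 with BL and -0.79 untreated, were the smallest of the 5 brightest GSTU probe sets.

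GSTU28 and GSTU18 were dimmer. GSTU28 had 45.2 and 54.5 in ATHB15 BL 2 h and 34.8, 3.8 and 39.5 in ATHB15 control, and was called absent on all 3 of those control arrays. In WOL it had 198 and 53.3 untreated and 417 and 354 at 0.5 h, with 12.4 to 317 over the later arrays. GSTU18 had 42.5 and 0.9 in ATHB15 BL 2 h, 28.1, 3.8 and 7.8 in ATHB15 control and 52.5 to 142 over the 10 WOL arrays, which lay above all 5 ATHB15 arrays.

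**Figure D2:**
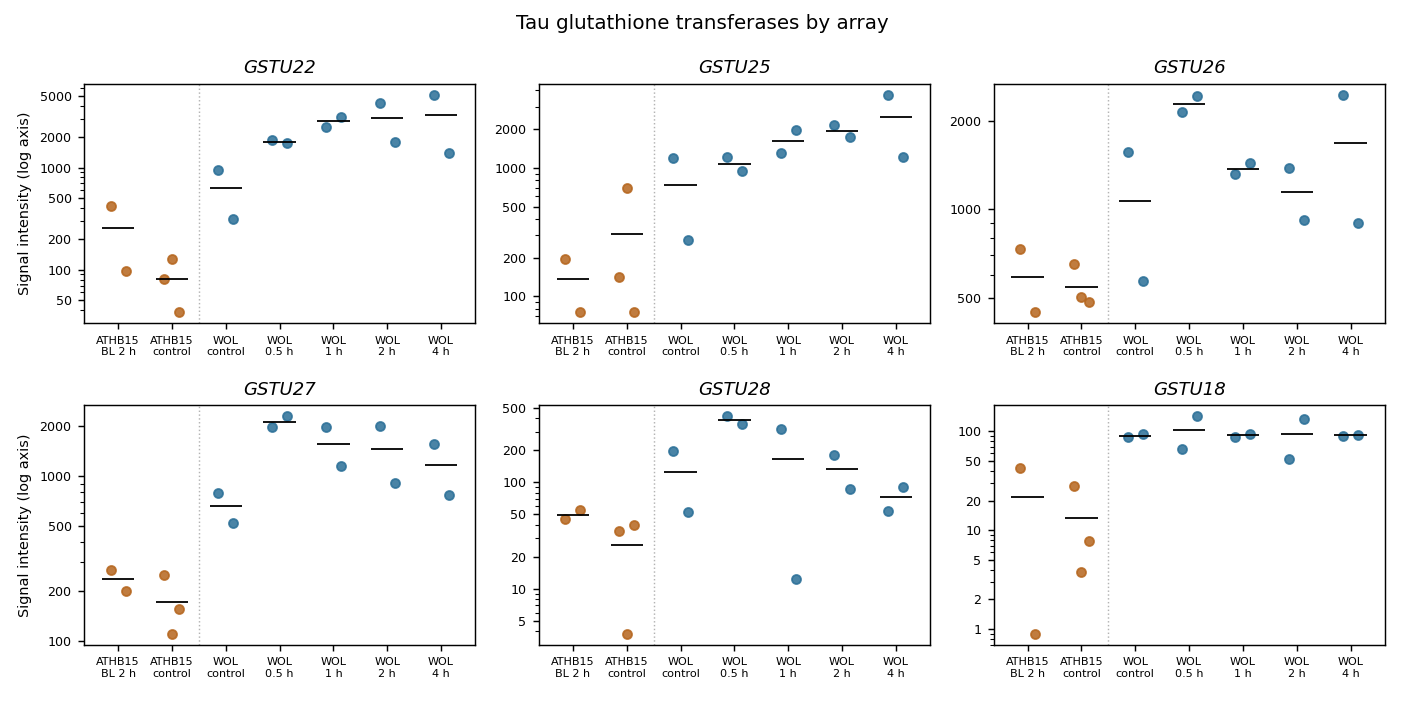
Signal intensity (log axis) of 6 GSTU genes on each of the 15 arrays. Points are arrays, the short bar is the group mean, ATHB15 groups are brown and WOL groups blue. GSTU22 is higher on all WOL BL arrays than on both WOL control arrays, and GSTU27 and GSTU18 are lower on every ATHB15 array than on every WOL array.

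Untreated ATHB15 cells were first set against untreated WOL cells, which asks how the 2 sorted populations differ before the hormone. Of the 58 members 3 were called lower in ATHB15 control and 0 higher (limma, Benjamini-Hochberg adjusted p under 0.05 over all 22746 probe sets), where 2.91% of all probe sets were called, 2.69% lower and 0.229% higher. The 3 were UGT72E3, which glucosylates the lignin precursors coniferyl and sinapyl alcohol, UGT71C1, which glucosylates phenylpropanoids such as caffeic acid, and GSTU27. In all, 49 of 58 members were lower by their estimate. The median log2 difference was -0.44 over the members and -0.03 over all probe sets, and 17 members (29.3%), all lower, had an unadjusted p under 0.05, against 15.5% of all probe sets. For the 11 GSTU genes the median was -0.96, and 10 were lower. That median is the estimate of GSTU21, absent on all 15 arrays, so it gives no size for the detected GSTU genes. The 58 members include 20 genes absent on every array, and the 11 GSTU genes include 3. The arrays of the 2 groups did not overlap for 25 members that were lower (43.1%) and 1 that was higher (1.72%), against 18.1% and 13.3% of all probe sets. Fewer cells of a type and less RNA per cell cannot be told apart in such bulk samples.

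UGT72E3 had 16.1, 6.5 and 4.6 in ATHB15 control, called absent on all 3 arrays, against 152 and 80.1 in WOL control. It was also called absent on 1 of the 2 WOL control arrays. It was at least 3.49-fold lower (log2 difference -2.37 ± 0.56 SE, adjusted p = 0.0353, limma). For such a bound each absent signal below the dimmest present call of its array was set to that signal. It was 2.65 without WOL control A and 4.61 without WOL control B. UGT71C1 had 2.5, 6.5 and 5.6 in ATHB15 control, again absent on all 3, against 135 and 40.9 in WOL control. It too was called absent on 1 of the 2 WOL control arrays. It was at least 2.78-fold lower (log2 difference -2.16 ± 0.53 SE, adjusted p = 0.0425, limma), with a bound of 1.71 without WOL control A and of 4.52 without WOL control B. GSTU27 averaged 173 ± 72.2 in ATHB15 control and 658 ± 192 in WOL control (SD, n = 3 and n = 2), a log2 difference of -1.87 ± 0.44 (SE, adjusted p = 0.0358, limma). For none of these 3 genes did the 2 groups overlap.

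Leaving out 1 array changed these calls. The count was 0 without WOL control A, without WOL BL 0.5 h A, without its array B, without ATHB15 control 2 or without ATHB15 control 3, and 6 without either WOL BL 4 h array. The share over all probe sets moved too: it was 0.123% without WOL control A, 2.11% without a WOL BL 0.5 h array, 0.98% without ATHB15 control 2, 1.50% without ATHB15 control 3 and 4.01% without a WOL BL 4 h array. The BL arrays enter because all groups share 1 estimate of the spread. The genes called changed as well: without ATHB15 control 1, GSTU18 was called and UGT71C1 and UGT72E3 were not (2.42% of all probe sets called). Without ATHB15 BL 2 h 1, or without ATHB15 BL 2 h 2, GSTU27, UGT71C1 and UGT72E3 all lost their calls. GSTU18 and GSTU22 were then called instead. Over the 23 alternatives described below, the untreated calls of GSTU27, UGT71C1 and UGT72E3 were kept in 9, 8 and 7. GSTU22 (log2 difference -2.62, adjusted p = 0.0515), GSTU18 (at least 2.64-fold lower, adjusted p = 0.0566, limma), UGT76B1 (log2 difference -2.56, adjusted p = 0.0627) and UGT73B5 (at least 2.69-fold lower, adjusted p = 0.074) lay just outside the threshold, as did UGT84A4, absent on every array of both groups. GSTU18 and UGT73B5 were also called absent on 1 of the 2 WOL control arrays.

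With BL for 2 h in both lines, 8 members were called lower and 1 higher in ATHB15 cells than in WOL cells. Called members were 15.5% of the 58, where 15% of all probe sets were called (8.36% lower, 6.65% higher), so the share was that of the table as a whole. An unadjusted p under 0.05 was found for 19 members (32.8%), against 28.9% of all probe sets. The arrays did not overlap for 26 that were lower (44.8%) and 9 that were higher (15.5%), against 26.8% and 29.8%. GSTU22, GSTU25 and GSTU27 made up 3 of the 8 lower calls, UGT73B4, UGT73B5 and UGT73D1 another 3, and UGT72E3 and UGT76B1 the rest. UGT85A2 was the 1 member called higher. The untreated and the BL comparison share no arrays.

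Among the GSTU genes, GSTU25 had 195 and 75.9 in ATHB15 BL 2 h against 2167 and 1733 in WOL BL 2 h, a log2 difference of -3.81 ± 0.84 (SE, 14-fold lower, adjusted p = 0.00871, limma). GSTU22 had 419 and 96.8 in ATHB15 BL 2 h against 4298 and 1781 in WOL BL 2 h, and a log2 difference of -3.65 ± 0.73 (SE, 12.6-fold lower, adjusted p = 0.00548, limma). GSTU27 had 271 and 203 in ATHB15 BL 2 h against 2010.1 and 903 in WOL BL 2 h, with a log2 difference of -2.45 ± 0.48 (SE, 5.45-fold lower, adjusted p = 0.00502, limma). For all 3 genes both ATHB15 arrays lay below both WOL arrays. For GSTU22 the size changed with 1 array, with a log2 difference of -4.63 without ATHB15 BL 2 h 1 and of -2.68 without ATHB15 BL 2 h 2.

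UGT73B4 and UGT73B5 are neighbours in the gene order, and both are known for induction by pathogens. UGT73B4 had 48.3 and 42.7 in ATHB15 BL 2 h against 214 and 273 in WOL BL 2 h, and was 4.19-fold lower (log2 difference -2.07 ± 0.60 SE, adjusted p = 0.0324, limma). UGT73B5 had 36.4 and 6.4 in ATHB15 BL 2 h, both absent, against 206 and 94.7 in WOL BL 2 h. It was at least 4.21-fold lower (log2 difference -2.19 ± 0.56 SE, adjusted p = 0.0187, limma), with bounds of 2.97 to 5.96 when 1 of the 4 arrays was left out. In ATHB15 control the UGT73B4 signals, 53, 144 and 24.7, overlapped those of WOL control, 169 and 104. UGT73D1 had 2.7 and 15 in ATHB15 BL 2 h, both absent, against 219 and 115 in WOL BL 2 h, and was at least 6.17-fold lower (log2 difference -2.86 ± 0.66 SE, adjusted p = 0.011, limma). Its bound was 4.61 to 8.26 when 1 of the 4 arrays was left out, and for all 3 genes the groups did not overlap.

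UGT76B1, which glucosylates salicylic acid, N-hydroxypipecolic acid and isoleucic acid and so restrains defence, had 83.2 and 20.4 in ATHB15 BL 2 h against 267 and 353 in WOL BL 2 h. It was 5.38-fold lower (log2 difference -2.43 ± 0.75 SE, adjusted p = 0.0423, limma). UGT72E3 had 1.7 and 5.8 in ATHB15 BL 2 h, both absent, against 98.7 and 40.5 in WOL BL 2 h. It was also called absent on 1 of those 2 WOL arrays. It was at least 3.07-fold lower (log2 difference -2.03 ± 0.61 SE, adjusted p = 0.0375, limma), with bounds of 2.15 to 4.37 when 1 of the 4 arrays was left out. UGT76B1 ran from 19.5 to 83.2 over all ATHB15 arrays against 162 to 1127 over all WOL arrays, without overlap. UGT72E3 ran from 1.7 to 16.1 against 8.5 to 152, and the overlap came from WOL BL 4 h B alone.

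UGT85A2 went the other way. It had 307 and 478 in ATHB15 BL 2 h against 127 and 189 in WOL BL 2 h, 2.33-fold higher (log2 difference 1.22 ± 0.34 SE, adjusted p = 0.0274, limma). Its untreated signals were 227, 233 and 223 in ATHB15 control and 221 and 219 in WOL control, a log2 difference of 0.05. Both ATHB15 BL arrays lay above, and both WOL BL 2 h arrays below, every untreated array of either line. Of the other UGT85 genes, UGT85A3, UGT85A5 and UGT85A7 were absent on all 4 arrays compared, and UGT85A4 had 56.4 and 67.6 in ATHB15 BL 2 h against 56.2 and 42.9 in WOL BL 2 h.

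Again 1 array could end these calls. Without 1 ATHB15 control array 8 or 9 members were called, where 13.6% to 14.7% of all probe sets were. Without WOL BL 2 h B the calls of UGT72E3, UGT73B4, UGT76B1 and UGT85A2 were lost. Without ATHB15 BL 2 h 1 those of UGT72E3, UGT73B4 and UGT73D1 were lost. All were lost without WOL BL 2 h A or without ATHB15 BL 2 h 2. Each of those 4 fits leaves 1 array in a group. The share over all probe sets was 5.96% without WOL BL 2 h A and 3.71% without ATHB15 BL 2 h 2. Without WOL BL 2 h A the log2 differences of GSTU27, GSTU22 and GSTU25 were -1.88, -3.02 and -3.65 (adjusted p = 0.0643, 0.0613 and 0.0602, limma). Without ATHB15 BL 2 h 2 that of UGT85A2 was 0.91, of UGT73B5 -1.58 and of UGT76B1 -1.70. The UBQ 3' to 5' ratio, a second sign of RNA quality, was 9.07 and 5.99 on the ATHB15 BL arrays against 4.90 and 3.79 on the WOL BL 2 h arrays, and with that ratio in the model GSTU27 was the 1 member still called, while the share over all probe sets was 1.95%. The median log2 difference over members was then -0.55, against -0.47 without the ratio. Both ATHB15 BL ratios were above both WOL ones.

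**Figure D3:**
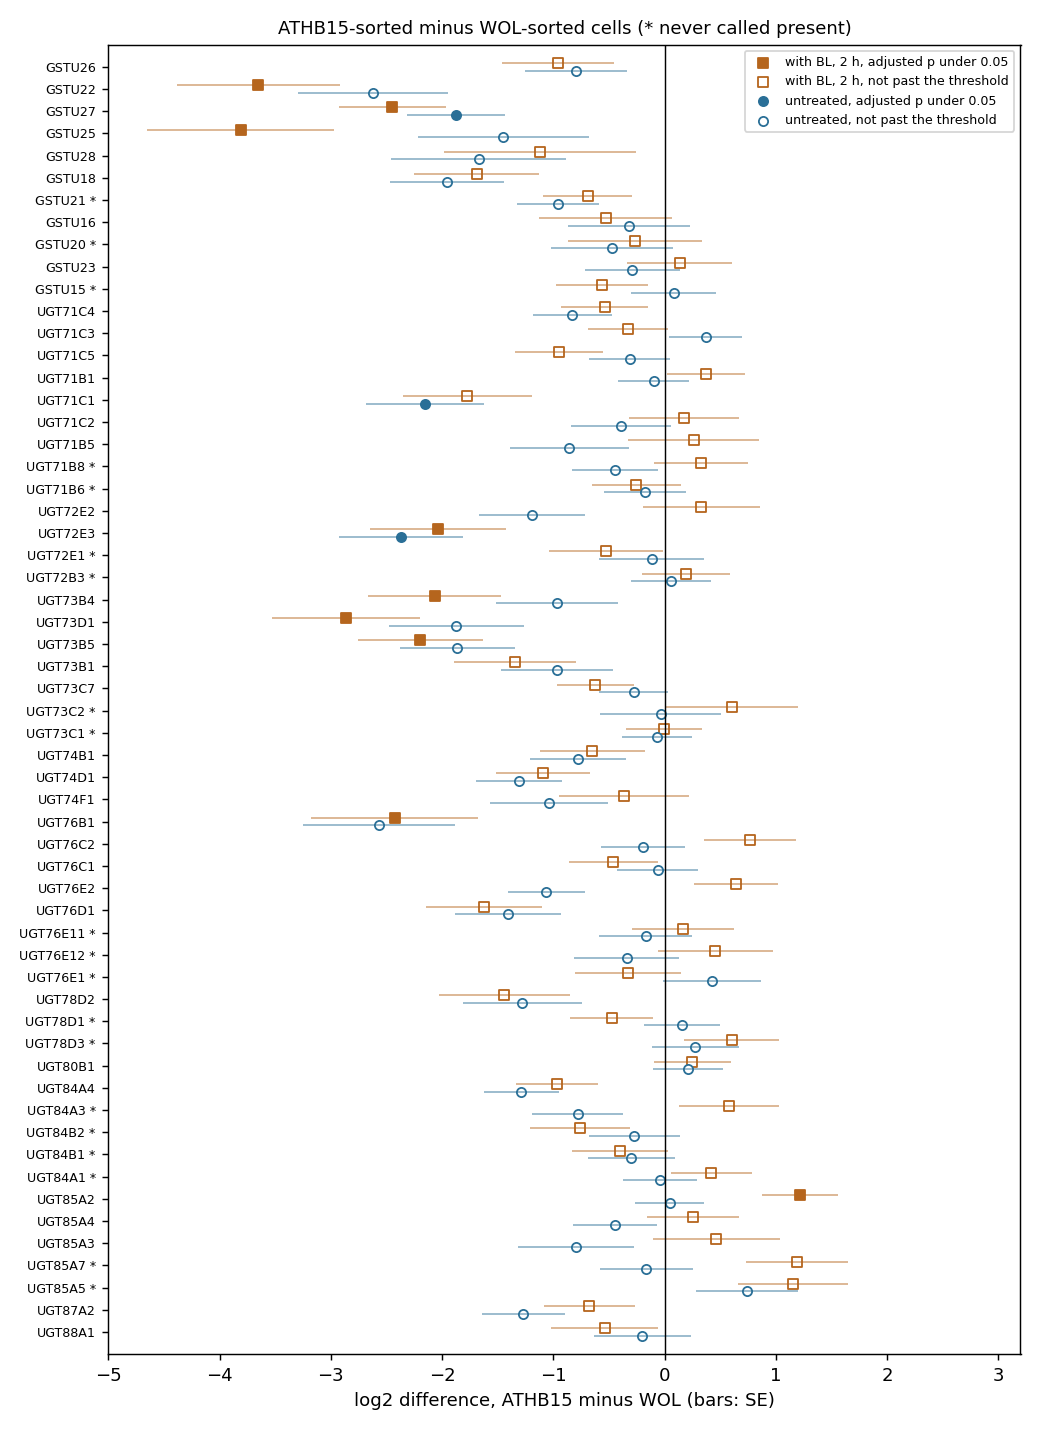
Log2 difference, ATHB15 minus WOL, of each of the 58 members, with its SE as a bar. Brown squares compare the groups with BL for 2 h and blue circles the untreated groups, filled symbols have an adjusted p under 0.05, and an asterisk marks genes absent on all 15 arrays. Estimates lie below 0 for 37 members with BL and for 49 untreated.

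Taking all arrays by line, 7 members were lower on each of the 5 ATHB15 arrays than on each of the 10 WOL arrays, where this held for 5.28% of all probe sets. They were GSTU18, GSTU27, UGT73B5, UGT73D1, UGT76B1, UGT76D1 and UGT84A4. UGT76D1, which glucosylates dihydroxybenzoic acids made from salicylic acid, had 4.8 and 20.9 in ATHB15 BL 2 h and 2.4, 9.7 and 26.1 in ATHB15 control, against 40.7 to 196 in WOL cells. UGT84A4, an ester-forming enzyme for hydroxycinnamic acids, had 14.7 to 43.2 over the ATHB15 arrays against 49.2 to 115 over the WOL arrays. UGT85A2 was the 1 member higher on every ATHB15 array than on every WOL array (4.28% of all probe sets), by a narrow margin, with a lowest ATHB15 signal of 223 against a highest WOL signal of 221. By their estimates 33 of 58 members (56.9%) were lower in ATHB15 cells both untreated and with BL, against 33.1% of all probe sets, and 9 of 11 GSTU genes were. The 58 include 20 genes absent on every array and the 11 include 3, and the signs of such genes are those of background.

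By subfamily, the estimates of UGT73 were lower in ATHB15 cells for 6 of 7 genes with BL and for 7 of 7 untreated, with 3 and 0 called. UGT74 was lower for 3 of 3 genes in both comparisons, and 0 were called, though UGT74F1 was called absent on both WOL control arrays. UGT71 was lower for 5 of 9 genes with BL and 8 of 9 untreated, UGT76 for 4 of 8 and 7 of 8, and UGT84 for 3 of 5 and 5 of 5. These counts include genes absent on every array, 2 of UGT73, 2 of UGT71, 3 of UGT76 and 4 of UGT84. Of all probe sets, 48.5% had lower estimates in ATHB15 cells with BL and 52.8% untreated, and 8.36% and 2.69% were called lower. Among the brightest UGT probe sets, UGT71C4 had 897 and 393 in ATHB15 BL 2 h and 566, 299.8 and 399 in ATHB15 control, against 666 to 1002 in WOL cells. UGT87A2, which is known for an effect on flowering time, had 371 and 188 in ATHB15 BL 2 h and 271, 178 and 138 in ATHB15 control, against 343 to 624 in WOL cells. Both overlapped between the lines, with untreated log2 differences of -0.83 and -1.27 (adjusted p = 0.276 and 0.096, limma).

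The root hair expansins moved with the line comparison. EXPA7 and EXPA18, summed, lay between 13.7 and 151 in ATHB15 BL 2 h, against values between 510.5 and 994 in WOL BL 2 h. Untreated, the sums lay between 10.2 and 110.5 in ATHB15 control, against values between 166 and 599 in WOL control. Both were called lower with BL, with log2 differences of -3.18 and -2.91 (adjusted p = 0.0208 and 0.0181, limma), and neither was called untreated. Their part in the lower GSTU and UGT signals was not tested. The summed signal of the stele regulators LHW and PHV lay between 2299 and 3342 in ATHB15 BL 2 h, against values between 1333 and 1519.9 in WOL BL 2 h, and neither gene was called.

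**Figure D4:**
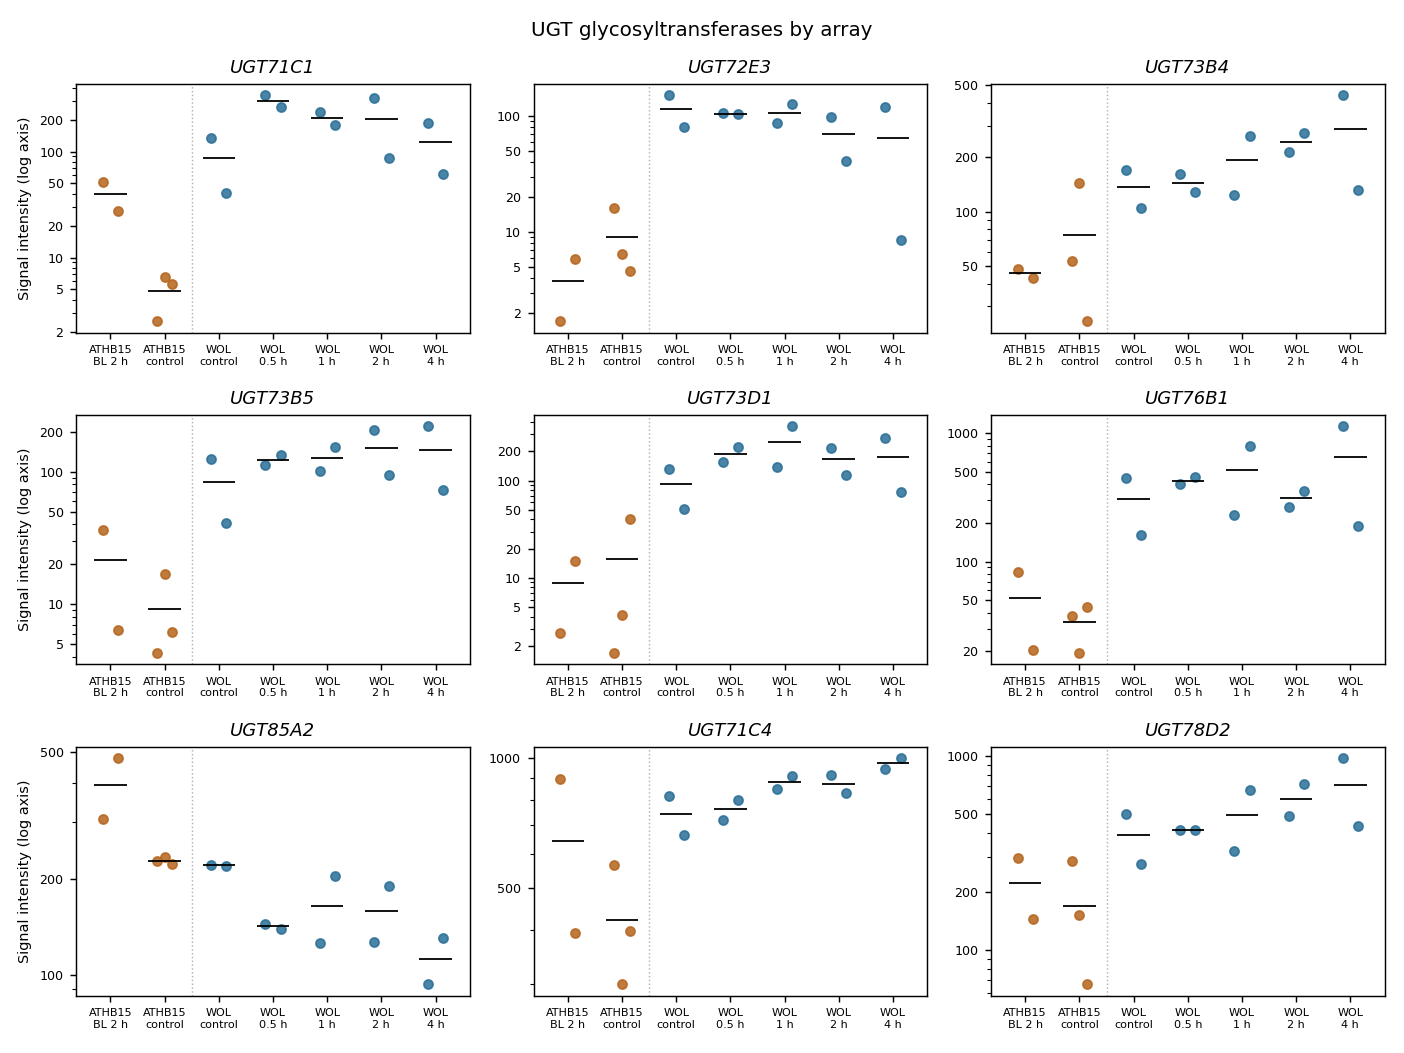
Signal intensity (log axis) of 9 UGT genes on each of the 15 arrays. Points are arrays, the short bar is the group mean, ATHB15 groups are brown and WOL groups blue. UGT73B5, UGT73D1 and UGT76B1 are lower on every ATHB15 array than on every WOL array, UGT85A2 is higher, and UGT71C4 and UGT78D2 overlap between the lines.

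BL was then followed over time in WOL cells, the course that asks which genes the hormone changes in the stele. No member was called at 0.5, 1, 2 or 4 h, and none in the F test over the course, where 0 of 22746 probe sets (0%) were called in any of these comparisons. At an unadjusted p under 0.05 there were 8 members at 0.5 h (13.8%, against 9.04% of all probe sets) and 7 at 1 h (12.1%, against 6.64%). There were 5 at 2 h (8.62%, against 6.62%) and 6 at 4 h (10.3%, against 8.37%). The F test gave 5 members (8.62%), where 1301 of the 22746 probe sets had such a p. Members whose BL arrays all lay above both controls numbered 17, 15, 9 and 10 at the 4 times (29.3%, 25.9%, 15.5% and 17.2% of members), against 18.3%, 13.9%, 12.1% and 13.1% of all probe sets. Those whose BL arrays all lay below numbered 7, 10, 12 and 7 (12.1%, 17.2%, 20.7% and 12.1%), against 26.9%, 24.6%, 24.7% and 17.2%. The WOL differences are therefore given as values that did not pass the test. The median log2 difference over members was 0.19, 0.15, 0.04 and 0.12 at the 4 times, and over all probe sets -0.08, -0.09, -0.11 and -0.05.

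GSTU22 had log2 differences of 1.70 ± 0.73, 2.34 ± 0.73, 2.32 ± 0.73 and 2.28 ± 0.73 from 0.5 to 4 h (SE, adjusted p = 0.548, 0.689, 0.672 and 0.51, limma). Against WOL control A alone they were 0.93, 1.57, 1.55 and 1.51, and against WOL control B alone 2.47, 3.11, 3.09 and 3.05, so the size changed with the control array and the sign did not. UGT71C3, which glucosylates methyl salicylate, had 159 and 129.6 in WOL control and 247 to 314 over the 8 WOL BL arrays. Its log2 differences were 0.77 ± 0.36, 0.92 ± 0.36, 0.97 ± 0.36 and 0.83 ± 0.36 over the 4 times (SE, adjusted p = 0.551, 0.744, 0.681 and 0.577, limma), and 0.64 to 0.84 against WOL control A alone.

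GSTU22 and UGT71C3 were the 2 members above both controls on all 8 WOL BL arrays, which held for 1.9% of all probe sets. UGT76C2 and UGT85A2 were the 2 members below both controls on all 8, which held for 4.89% of all probe sets. UGT76C2, which inactivates cytokinins by N-glucosylation, had 144 and 150.0 in WOL control and 50.7 to 135 over the BL arrays. UGT85A2 had 221 and 219 in WOL control and 144 and 139, then 126 and 203, then 127 and 189, then 93.3 and 130.4 over the 4 BL times.

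Other members had their largest difference early. GSTU27 had log2 differences of 1.71, 1.21, 1.05 and 0.75 in order of time (adjusted p = 0.516 at 0.5 h, limma), and of 1.41, 0.91, 0.75 and 0.46 against WOL control A alone. UGT71C1 had 135 and 40.9 in WOL control and 343 and 263, then 238 and 178, then 318 and 87.8, then 185 and 61.1 over the BL times, with log2 differences of 1.77, 1.26, 1.01 and 0.43. Against WOL control A alone its 4 h value was -0.28. GSTU26 and GSTU28 differed by 1.25 and 1.72 at 0.5 h, with adjusted p = 0.53 and 0.567 (limma). Against WOL control A alone these were 0.53 and 0.90, and against WOL control B alone 1.96 and 2.53. EXPA7 and EXPA18 had their highest sums at 0.5 h, 1206 to 1245 against 166 to 599 in WOL control. Their part in these values was not tested.

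GSTU25 and UGT73B4 had larger differences at 2 and 4 h than at 0.5 h. GSTU25 differed by 0.87, 1.44, 1.72 and 1.85 from 0.5 to 4 h, but by -0.16, 0.42, 0.69 and 0.82 against WOL control A alone. UGT73B4 had 169 and 104 in WOL control and 443 and 132 at 4 h, where the 2 arrays lay on either side of control A, and differed by 0.10 at 0.5 h and by 0.80 at 4 h. Among the other members of smallest p, UGT85A4 differed by -1.48 at 0.5 h, UGT76E2 by -0.96 at 2 h, and UGT85A2 and UGT72E3 by -0.90 and -1.14 at 4 h (adjusted p = 0.516, 0.7, 0.541 and 0.634, limma). UGT74D1 differed by 0.99 at 1 h, with 503 and 618 against 352 and 211 in WOL control, and UGT72E3 turned to 0.10 without WOL BL 4 h B. Of genes absent on both arrays of the lower group, UGT73C7 was at least 1.85-fold lower and UGT71C2 at least 1.63-fold higher at 0.5 h, UGT71B5 at least 2.41-fold lower at 1 h, UGT85A3 at least 1.97-fold lower at 2 h and UGT85A4 at least 1.95-fold lower at 4 h. None of these 5 passed the threshold. For UGT71C2, UGT71B5, UGT85A3 and UGT85A4 the higher group was itself called absent on 1 of its 2 arrays.

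**Figure D5:**
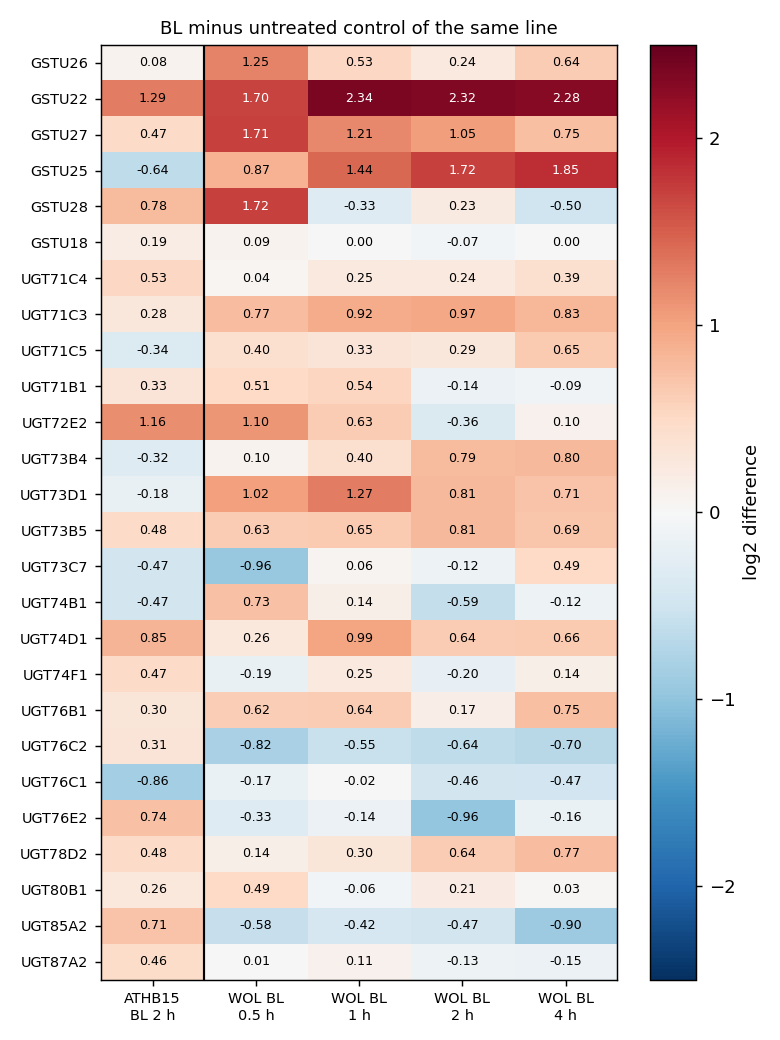
Log2 difference of BL minus untreated control of the same line for the 26 members called present on at least 8 arrays, with the ATHB15 line at left and the 4 WOL times after it. Red is higher with BL and blue lower, and each cell prints its value. None has an adjusted p under 0.05. GSTU22 runs from 1.70 to 2.34 over the WOL times, and UGT85A2 is 0.71 in ATHB15 and -0.42 to -0.90 in WOL.

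In ATHB15 cells 0 members were called after 2 h of BL, where 1.11% of all probe sets were called (0.352% higher and 0.761% lower). The BL arrays all lay above the controls for 11 members (19%) and below for 2 (3.45%), against 15% and 16.2% of all probe sets. At an unadjusted p under 0.05 there were 8 (13.8%), 7 of them higher, against 13.7% of all probe sets. UGT72E2, which glucosylates coniferyl and sinapyl alcohol, had 340.4 and 178 in ATHB15 BL 2 h against 83.2, 86.3 and 143 in ATHB15 control, a log2 difference of 1.16 ± 0.48 (SE, adjusted p = 0.289, limma). Both BL arrays lay above the 3 controls. UGT74D1, an auxin glucosyltransferase, had 229 and 165 in ATHB15 BL 2 h against 146, 78 and 87.5 in ATHB15 control, a log2 difference of 0.85 ± 0.39 (SE, adjusted p = 0.346, limma). UGT85A2 and UGT76E2 differed by 0.71 and 0.74, and UGT76C1, a cytokinin N-glucosyltransferase, by -0.86, with 80.3 and 32.8 in ATHB15 BL 2 h against 144, 103 and 84.7 in ATHB15 control.

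GSTU22 differed by 1.29 ± 0.67 in ATHB15 cells (SE, adjusted p = 0.428, limma), with 1 BL array above all 3 controls and the other among them. GSTU25 differed by -0.64, a value that turned to 0.21 without ATHB15 control 2, and GSTU27 by 0.47. UGT71C1, UGT84A3 and UGT85A7 also had an unadjusted p under 0.05 but were absent on all 5 arrays, and no fold is given for them.

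The 2 h BL change itself was compared between the lines as ATHB15 minus WOL, and 0 members were called, where 0.127% of all probe sets were (0.0352% higher and 0.0923% lower). Members with an unadjusted p under 0.05 numbered 4 (6.90%), against 12% of all probe sets, and 2 of them, UGT84A3 and UGT85A7, were absent on every array. UGT76E2 had the smallest p, with 101 and 79.4 in ATHB15 BL 2 h and 32.6, 64.6 and 48 in ATHB15 control, and with 36.9 and 70.3 in WOL BL 2 h and 100.3 and 133 in WOL control, a difference of 1.70 ± 0.51 (SE, adjusted p = 0.194, limma). UGT85A2 followed at 1.18 ± 0.46 (adjusted p = 0.321, limma), UGT72E2 at 1.52 ± 0.71 and GSTU25 at -2.36 ± 1.14 (adjusted p = 0.416 and 0.431). Without 1 array the value of UGT72E2 ran from 0.86 to 2.18 and that of GSTU25 from -3.39 to -1.34. UGT76C2 was at 0.96.

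By known substrate, 8 genes for lignin precursors and other phenylpropanoids were measured. With BL, estimates were lower in ATHB15 cells than in WOL cells for 5 and higher for 3 (median log2 difference -0.75, 2 called lower, against 8.36% of all probe sets). Untreated, they were lower for all 8 (median -1.24, 3 called lower, against 2.69% of all probe sets). These medians include genes not above background: 6 of the 8 were absent on all arrays of ATHB15 BL 2 h, 6 on all of ATHB15 control, 3 on both of WOL BL 2 h and 4 on both of WOL control. The list holds GT72B1, known as UGT72B1, which glucosylates lignin precursors and chlorinated phenols and is outside the 58 because the annotation spells it without the U. GT72B1 had 87.4 and 59 in ATHB15 BL 2 h and 255, 59.5 and 129.9 in ATHB15 control, against 869.9 and 588 in WOL BL 2 h and 1102 and 512 in WOL control. Its log2 difference was -3.05 ± 0.64 with BL and -2.42 ± 0.59 untreated (SE, adjusted p = 0.00697 and 0.0405, limma), and no ATHB15 array reached the WOL arrays of the same treatment. UGT72E1, UGT84A1 and UGT84A3 of this list were absent throughout.

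The 3 measured genes for salicylic and pipecolic acid derivatives (UGT74F1, UGT76B1 and UGT76D1, of 5 listed) had estimates lower in ATHB15 cells in both comparisons, with 1 called with BL (UGT76B1) and 0 untreated. UGT74F1 was called absent on both WOL control arrays and on 2 of 3 ATHB15 control arrays. Its signal of 55.3 on ATHB15 control 1 lay above those of WOL control, 51.4 and 49.5. Of all probe sets, 8.36% were called lower with BL and 2.69% untreated. UGT76D1, absent on all 5 ATHB15 arrays, was at least 2.75-fold lower with BL, with bounds of 1.83 to 4.13 when 1 of the 4 arrays was left out, and at least 2.11-fold lower untreated (adjusted p = 0.0507 and 0.153, limma). It was also called absent on 1 array of WOL BL 2 h and on 1 array of WOL control. For cytokinins, 3 of 4 listed genes were measured and 0 were called in any comparison. UGT76C1 and UGT76C2, the 2 detected of these, differed by -0.06 and -0.19 between the untreated lines. For auxins, UGT74D1 had 576 and 324 in WOL BL 2 h and 352 and 211 in WOL control and differed between untreated lines by -1.31 (adjusted p = 0.096, limma), and UGT84B1 was absent throughout.

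Of 3 measured abscisic acid genes, UGT71C5 was detected, with 69.5 and 99.1 in ATHB15 BL 2 h against 153 and 201 in WOL BL 2 h (log2 difference -0.95, adjusted p = 0.127, limma). Among flavonoid genes UGT78D2, the flavonoid 3-O-glucosyltransferase, was the 1 of 5 measured that was detected, with 298 and 144 in ATHB15 BL 2 h against 492 and 713 in WOL BL 2 h (log2 difference -1.44, adjusted p = 0.117, limma). UGT74B1, which completes the glucosinolate core, had 1038 and 867 at 0.5 h and 348 and 393 at 2 h of BL in WOL cells, against 608 and 529 in WOL control, above and below both controls. Its log2 differences were 0.73 and -0.59 (adjusted p = 0.632 and 0.849, limma). UGT80B1, a sterol glucosyltransferase, ran from 161 to 293 in ATHB15 cells and from 126 to 259.7 in WOL cells, and differed by 0.21 between the untreated lines.

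Few other genes of glutathione conjugation had a named probe set. Of 24 listed transferases of the other classes 2 were measured. GSTF4, a phi class transferase, was called lower in ATHB15 cells both with BL and untreated, and was absent on all 5 ATHB15 arrays. It was at least 3.80-fold lower with BL and at least 2.59-fold lower untreated (adjusted p = 0.00393 and 0.028, limma), and GSTL3 was called in neither. Of 6 listed genes of glutathione synthesis and reduction 2 were measured. The glutathione reductase annotated as GR was called higher in ATHB15 cells with BL (log2 difference 1.40, adjusted p = 0.0222, limma), and GR1 was not called. Neither was called in any BL comparison. Of 22 oxidative and xenobiotic response genes the zinc finger factor STZ was the 1 measured, with log2 differences of -3.24 with BL in ATHB15 cells and -3.87 between the lines with BL (adjusted p = 0.00688 and 0.000572, limma). None of the 15 listed conjugate transporters or the 15 brassinosteroid synthesis and inactivation genes had a probe set named here. As 8730 probe sets carry no gene name in the annotation used, this does not show that the array lacks them.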

How the data were processed

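The deposited table gives, per the file headers, a signal intensity, a detection call and a detection p-value for each of 22810 probe sets on 15 arrays. The authors' deposited intensity values were on a linear scale with a trimmed mean of 250 on every array, and were identical to those of the second deposited table. Which software made them is not given in the sources used, and 30 columns of probe pair counts were not used. After 64 control probe sets were left out, log2(signal + 16) of 22746 probe sets was fitted in limma 3.58.1 (R 4.3.3) with 1 mean per group and 1 spread for all groups, and Benjamini-Hochberg adjustment within each comparison. Calls took an adjusted p under 0.05. The fit was run on simulated data with independent noise, in which changes were added to probe sets above the median signal. That run does not bear on dim probe sets or on differences in array quality. Array number limits the precision.

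Of the probe sets, 13513 match 1 gene, 503 several and 8730 none here. The members and lists were chosen with earlier results of these data known. Named were all called members, else up to 8 of smallest unadjusted p, the 5 brightest of each family, members with a listed substrate and those absent on all arrays, besides genes with no overlap between groups, chosen after their values were seen. Deviations of same-lettered or same-numbered arrays correlated unevenly (-0.19 to 0.42 in WOL, highest for WOL control A with WOL BL 4 h A; -0.04 and 0.06 in ATHB15), and not every pair exceeded 0.1, so replicate numbers were not taken as pairs. Alternatives were the offset, quantile normalization, median centring, a filter on present calls, UBQ or GAPDH ratios as covariates, a replicate block, and leaving out each array.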

Additional observations from a re-analysis of the deposited data

How the results depend on the processing

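In the BL comparisons of either line, 0 members were called under every alternative run. The same held where the BL responses of ATHB15 and WOL cells were set against each other. Few probe sets of any kind were called there. With every array kept, at most 1 probe set was called at any WOL time. In ATHB15 cells the share was 0.0044% with the UBQ ratio as a covariate and 3.12% with the filter on present calls. For the contrast of the responses it was 0% and 0.585%. These counts of 0 therefore say little about the members themselves. For ATHB15 control minus WOL control, 3 members were called. The count was 1 with an offset of 1 (274 of 22746 probe sets called), 0 with an offset of 64 (1.36% of all probe sets), 1 with quantile normalization (1.98%), 0 with median centring (2.14%), and 0 with the UBQ or GAPDH ratio as a covariate (1.49% and 1.36%). It was 8 of 35 members tested (22.9%, against 5.08%) with probe sets present on at least 2 arrays, a filter that a gene could pass through its higher group alone. It was 0 to 6 when 1 array was left out. For ATHB15 BL 2 h minus WOL BL 2 h, 9 members were called. The count was 5 with an offset of 1 (10.2% of all probe sets called), 7 with an offset of 64 (17.1%), 7 with quantile normalization (13.6%), 10 with median centring (17.4%), 12 of 35 with the filter (34.3%, against 27.1%), 1 when the UBQ ratio was a covariate (1.95%), 9 with the GAPDH ratio (11.5%), and 0 to 11 when 1 array was left out. With the replicate block the counts were 2 untreated (1.12% of all probe sets), 8 with BL (8.12%) and 0 elsewhere. Untreated, GSTU27 and UGT72E3 were then not called and UGT76D1 was. With BL, UGT72E3, UGT76B1 and UGT85A2 were not called and UGT71C1 and UGT76D1 were. The filter tests fewer probe sets. The other causes were not tested.

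Median centring moved the median of all probe sets to 0.24 untreated and 0.21 with BL, against member medians of -0.17 and -0.28. Of 900 differences refitted without 1 array 897 kept their sign, as did 476 of 478 under other alternatives. Many of the refits without 1 array could not change the estimate, because that array lay outside the groups compared. The filter on present calls also leaves an estimate as it was. These counts are therefore no measure of stability. GSTU25 at 0.5 h of BL in WOL turned to -0.31 with the GAPDH ratio and ran from -0.16 to 1.89 without 1 array. UGT72E3 at 4 h ran from -2.37 to 0.10 without 1 array. In ATHB15 cells GSTU25 ran from -1.27 to 0.21 without 1 array, and GSTU27 turned to -0.028 with the UBQ ratio. Each gene had 1 probe set, so averaging probe sets gave no further value. Groups of 2 or 3 arrays, and signals near the dimmest present call, limit every comparison.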
